A study of Caenorhabditis elegans with 2 samples.

Results

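The microRNA genes of Caenorhabditis elegans outside the mir-51 family were examined for binding of SEM-2 in embryos. The members were all nuclear genes of biotype miRNA in the Ensembl release 115 annotation of the WBcel235 assembly without mir-51 to mir-56, which left 255 of 261 microRNA genes among 46890 annotated nuclear genes. The gene mir-55b, close in name to mir-55, was not named in that rule and stayed among the members. All 255 were matched to a RefSeq symbol by their WormBase identifier. The window of a gene ran from 1500 bp before to 100 bp past the 5′ end annotated for its hairpin, and the gene was given the strongest peak whose summit lay in that window. Of the 255 genes, 11 had a summit of the thresholded list in the window, 36 had a summit among the 2000 strongest peaks of the combined list, and 120 had any summit of the combined list.

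Binding was measured by ChIP-seq in 1 group of 2 samples, which the labels number 1 and 3 and give as separate biological replicates. Both were whole embryos of mixed stage and of pooled sexes from strain OP701, obtained by bleaching, with 1 hour given as their age. The strain carries the allele unc-119(tm4063) and the transgene insertion wgIs701, which holds sem-2::TY1::EGFP::3xFLAG and, as its marker, unc-119(+); the tagged protein was precipitated with an antibody against GFP. The transgene adds tagged sem-2 to animals that the labels do not describe as lacking their own copy, and whole embryos do not show in which cells a site was bound. No second condition was sampled, so no test between groups was made. The data were 4 peak lists: a list of 30000 peaks for each replicate, a list of 30000 peaks from both replicates together (the combined list), and the 634 peaks that the authors kept after their analysis of the irreproducible discovery rate (the thresholded list). Peak strength is the authors' signal value, whose scaling is not stated, and it was compared only within a list; rank 1 is the strongest peak of a list. The values of the lists at a gene are those of the best summit in the window in each list, unless an overlapping peak is named, so they can belong to neighbouring peaks. The lists hold no read counts, so the sequencing depth behind a peak is unknown.

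SEM-2 is a transcription factor of the SoxC group, which binds DNA through an HMG box. A microRNA is cut from a hairpin in a longer transcript, and the mature strand, held by an Argonaute protein, pairs with messenger RNAs mainly through its seed at bases 2 to 8, so genes with the same seed form a family. In C. elegans the mir-35 family is abundant in the embryo and is needed for embryonic development, and the mir-58 family, related to bantam of Drosophila, is abundant from the embryo onward. The genes lin-4 and let-7 time larval development, mir-1 acts in muscle, mir-124 is made in neurons, and lsy-6 sets the left and right difference of the ASE taste neurons. Many worm microRNA genes lie in introns of protein-coding genes or in clusters that can be transcribed together, and the hairpin's 5′ end is not the transcription start.

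Mature strands of 9 of the 11 microRNAs with a thresholded summit are shown first, with the seed in capitals, to show which seeds they share. The families by which the peaks are described were taken from a list and do not follow an identical seed in every case. The strands of mir-80 and mir-81, which had no thresholded summit, are added as relatives of mir-58.1. All strands were read from the RefSeq sequence of WBcel235 at the mature positions of Ensembl release 115.
mir-37-3p: uCACCGGGugaacacuugcagu
mir-38-3p: uCACCGGGagaaaaacuggagu
mir-39-3p: uCACCGGGuguaaaucagcuug
mir-40-3p: uCACCGGGuguacaucagcuaa
mir-41-3p: uCACCGGGugaaaaaucaccua
mir-58.1-3p: uGAGAUCGuucaguacggcaau
mir-80-3p: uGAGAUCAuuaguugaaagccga
mir-81-3p: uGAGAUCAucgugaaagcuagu
mir-73-3p: uGGCAAGAuguaggcaguucagu
mir-74-3p: uGGCAAGAaauggcagucuaca
mir-62-3p: uGAUAUGUaaucuagcuuacag
The 5 strands from mir-37 to mir-41 had the same seed, CACCGGG, which was found in 8 genes, mir-35 to mir-42. The seed of mir-58.1 (GAGAUCG) differed at its last base from GAGAUCA of mir-80 and mir-81, which 6 genes shared. The strands of mir-73 and mir-74 shared GGCAAGA with 4 other genes, mir-72, mir-266, mir-8187 and mir-8188. The seed of mir-62, GAUAUGU, was also that of mir-50 and mir-90.

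The sequences at 3 of the 6 thresholded summits are shown as 151 bases of the plus strand of WBcel235 centred on the summit, with bases of annotated mature strands in capitals, to show where each summit lay against its hairpin. They cover chrIV:3232994-3233144, chrII:11537835-11537985 and chrX:2368687-2368837.
mir-58.1 summit: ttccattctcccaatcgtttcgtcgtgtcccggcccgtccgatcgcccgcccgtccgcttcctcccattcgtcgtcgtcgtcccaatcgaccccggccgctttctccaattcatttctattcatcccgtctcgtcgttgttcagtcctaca
mir-37 summit: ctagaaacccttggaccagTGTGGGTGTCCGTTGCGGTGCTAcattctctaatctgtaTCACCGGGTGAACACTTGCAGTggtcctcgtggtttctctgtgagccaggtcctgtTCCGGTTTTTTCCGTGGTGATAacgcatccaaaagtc
mir-73 summit: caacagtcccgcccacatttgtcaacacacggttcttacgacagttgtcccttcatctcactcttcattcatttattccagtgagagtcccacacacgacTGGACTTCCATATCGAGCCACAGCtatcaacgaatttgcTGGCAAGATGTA
The window at mir-58.1 lay upstream of the hairpin and held no mature base. The window at mir-37 held 67 bases of mature strands (mir-37-5p, mir-37-3p and mir-38-5p), and its summit fell within mir-37-3p. The window at mir-73 held 36 bases of the mir-73 strands, all downstream of the summit.

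The 11 genes with a thresholded summit were 4.31% of the microRNA genes, against 398 of 19973 protein-coding genes (1.99%) read in the same way. These 11 genes shared 6 peaks, since 1 peak lay at mir-37 to mir-41 and another at mir-73 and mir-74. When genes on the same strand with 5′ ends within 1000 bp of each other were counted as 1 locus, 6 of 223 loci (2.69%) had a thresholded summit; the 398 protein-coding genes shared 289 peaks. The 36 genes with a summit among the 2000 strongest combined peaks, here called strong peaks, made up 14.1% of the microRNA genes, against 4.79% of the protein-coding genes. They stood for 28 peaks and for 26 of the 223 loci (11.7%). For any combined peak the shares were 47.1% of the microRNA genes and 37.5% of the protein-coding genes. Counted by genes, the share at microRNA genes was thus higher than the background under all 3 rules, and most so, as a ratio, for the strong peaks. Counted by loci, the thresholded share of 2.69% lay near the 1.99% of protein-coding genes, which were not grouped into loci.

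**Figure D1:**
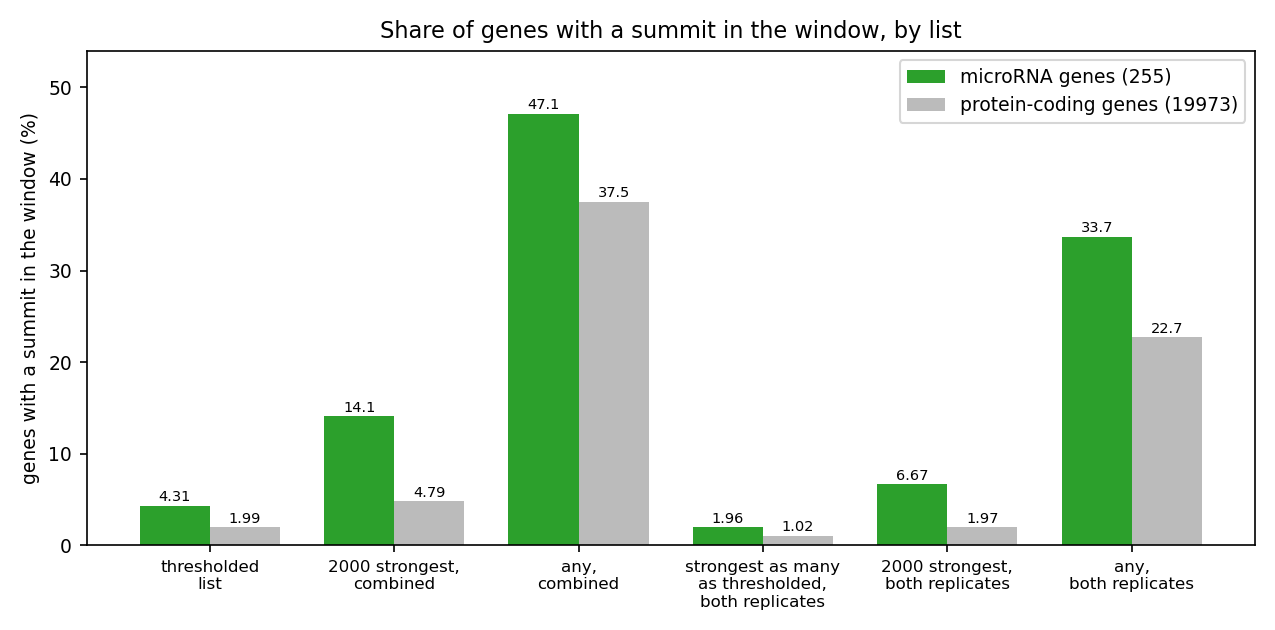
Share of genes, in percent, with a summit in the window, for the 255 microRNA genes (green) and the 19973 protein-coding genes (grey) under 6 rules; the fourth takes the 634 strongest peaks of each replicate. The bars are counts over genes and carry no error; at each rule the green bar is higher, with 4.31% against 1.99% for the thresholded list and 47.1% against 37.5% for any combined peak.

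Other classes of small RNA genes gave the range against which these shares can be set. A thresholded summit lay in the same window at 209 of 612 tRNA genes (34.2%), 72 of 346 snoRNA genes (20.8%), 7 of 129 snRNA genes (5.43%), 281 of 7764 genes of the class ncRNA (3.62%) and 35 of 15363 piRNA genes (0.228%). By this rule the share at microRNA genes was near that of the snRNA and ncRNA classes and below those of the tRNA and snoRNA genes. For strong peaks the 14.1% at microRNA genes stood above 8.53% at snRNA and 7.68% at ncRNA genes and below 41.8% at tRNA and 26% at snoRNA genes. None of the 6 thresholded summits at microRNA genes lay within 100 bp of a tRNA, snoRNA or snRNA gene. Summits at mir-58.1, mir-37 and mir-73 lay within 100 bp of an annotated ncRNA gene (Y67D8A.6, Y62F5A.14 and T24D8.11).

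The strongest peak at a microRNA gene stood at mir-58.1, the founding member of the mir-58 family. Its signal value was 311.751 in the combined list (rank 190), 221.188 in replicate 1 (rank 183) and 91.1443 in replicate 3 (rank 309). It was high in both samples. The peak (chrIV:3232921-3233194) had its summit at 3233069, 185 bp upstream of the hairpin (3233254 to 3233350, plus strand), in an intron of phkb-1, a phosphorylase kinase subunit gene on the same strand. The start of phkb-1 was 10629 bp away. A neighbouring strong peak, with its summit 22 bp inside the hairpin's 5′ end, had a combined signal value of 135.53 (rank 920). The 101 bases around the stronger summit were 62.4% G and C, where the median over all combined summits was 42.6%.

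The next strongest peak lay within the mir-35 cluster, a row of 7 hairpins on the plus strand of chromosome II inside an intron of Y62F5A.9, which lies on the opposite strand. It spanned chrII:11537750-11538062, and its signal value was 260.96 in the combined list, 208.327 in replicate 1 (rank 192) and 81.3945 in replicate 3 (rank 443). The combined summit at 11537910 lay in the mir-37 hairpin (11537833 to 11537930), 23 bp upstream of mir-38, so it was in the windows of mir-37 to mir-41 but downstream of those of mir-35 and mir-36. The summits of the replicates differed in place. Replicate 1 had its summit 155 bp from the combined one, within the windows of mir-36 to mir-41, and a second peak of signal value 189.27 inside the cluster; replicate 3 had its summit 29 bp away, within those of mir-38 to mir-41. The longest exact stretch shared by any pair of hairpins of the family was 17 bp. The sources used here give neither the length of the reads nor how reads that matched several places were treated.

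The eighth member of the mir-35 family, mir-42, lies elsewhere on chromosome II, upstream of mir-43 of the mir-2 family and mir-44 of the mir-44 family. A strong peak 210 bp upstream of mir-42 lay in the windows of all 3 hairpins. It had signal values of 135.595 in the combined list (rank 918), 73.743 in replicate 1 (rank 1428) and 53.1993 in replicate 3 (rank 2611). It was below the thresholded list and among the 2000 strongest in replicate 1 only. The nearby mir-45, another member of the mir-44 family, had a strong peak of 134.438 (rank 943), overlapped by a peak of 93.4479 in replicate 1 (rank 711) and of 53.7856 in replicate 3 (rank 2484). The summits of those peaks lay outside the window, where the best replicate values were 61.1903 (rank 2721) and 48.4004 (rank 3902). The mir-35 family thus had 5 of 8 members with a thresholded summit and 6 of 8 with a strong peak, from 2 peaks, while mir-35 itself had no summit in its window in any list and mir-36 only in replicate 1.

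**Figure D2:**
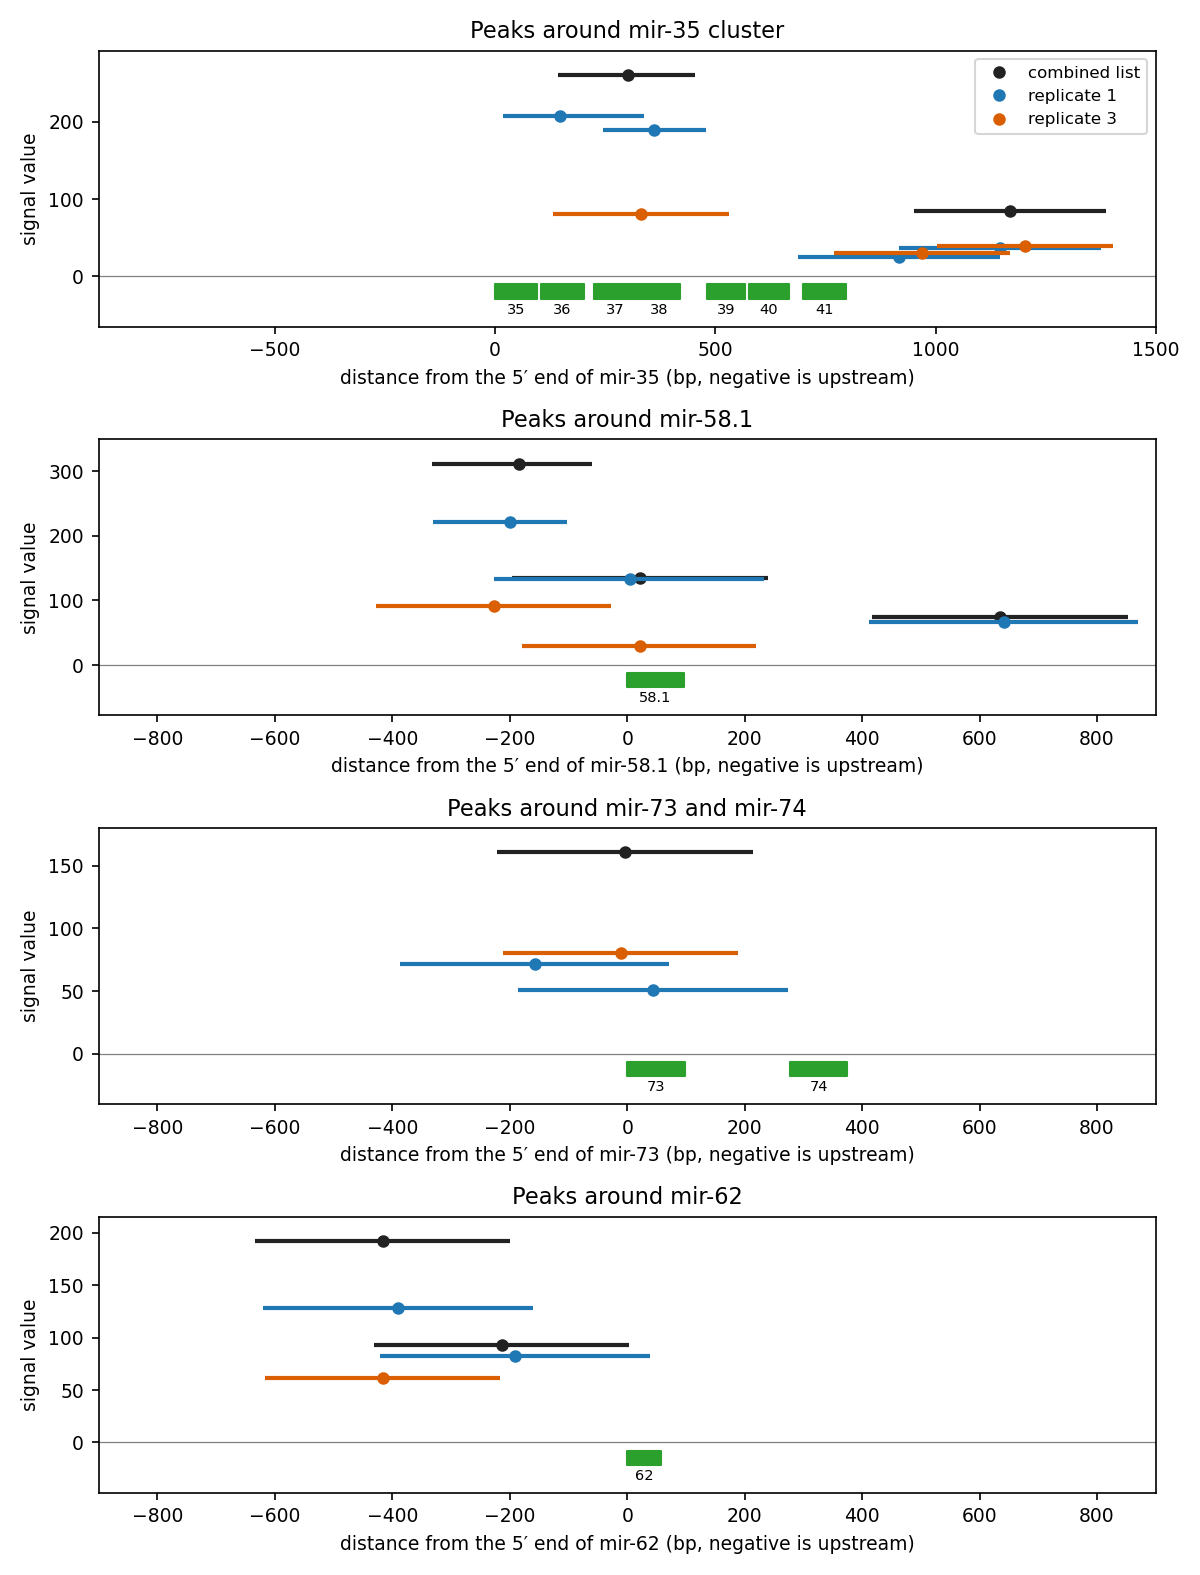
Peaks around the mir-35 cluster, mir-58.1, mir-73 and mir-74, and mir-62. The horizontal axis is the distance in bp from the hairpin's 5′ end and the vertical axis the signal value; each line is a peak with its summit as a dot, in the combined list (black), replicate 1 (blue) and replicate 3 (orange), and green boxes are hairpins labelled by number. Signal values are comparable only within a colour. Both replicates have a peak at each locus, and at mir-73 the replicate 1 summits lie on either side of the combined one.

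In the mir-58 family, 3 of 8 listed members had a strong peak. After mir-58.1 these were mir-81, with 115.596 in the combined list (rank 1506), 59.9415 in replicate 1 and 50.422 in replicate 3, and mir-80, with 112.928 (rank 1636), 95.3163 and 41.8903. The mir-80 peak was strong in replicate 1 (rank 666) and weaker in replicate 3 (rank 6823). The hairpin of mir-82, which shares an exact stretch of 20 bp with that of mir-81, had a peak in replicate 1 only (48.1903, rank 6257). The 3 mir-2209 genes had combined signal values from 51.9274 to 75.275. No list had a summit at mir-58.2 or at mir-58c, a gene with the mir-80 seed that was not in the family list.

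The microRNAs mir-73 and mir-74 form a pair on X in intergenic sequence, 2772 bp from the nearest protein-coding start (T24D8.6). Their peak (chrX:2368544-2368979) had its summit at 2368762, 3 bp upstream of the mir-73 hairpin (2368765 to 2368863). Its signal value was 160.708 in the combined list (rank 568), 71.5393 in replicate 1 (rank 1565) and 80.1273 in replicate 3 (rank 470). This was the only thresholded peak at a microRNA gene with a better rank in replicate 3 than in replicate 1. In replicate 1 its summit was 154 bp from the combined one and a second peak of 50.8978 lay on the other side. Of the genes that share their seed, mir-72 on chromosome II had a peak in replicate 1 only (91.3519, rank 766). In the combined list mir-8187 had 90.2582 (rank 3692), mir-266 had 70.4596 (rank 8652) and mir-8188 had 41.1779 (rank 28862).

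The peak at mir-62 (chrX:12691974-12692409) lay 416 bp upstream of the hairpin (12692608 to 12692665), which is in an intron of ugt-50, a UDP-glucuronosyltransferase gene on the same strand. The summit fell in an exon of ugt-50, 619 bp from the start of that gene. Its signal value was 192.261 in the combined list (rank 393), 128.571 in replicate 1 (rank 388) and 61.6622 in replicate 3 (rank 1338). Its seed partner mir-90 had a strong peak 72 bp upstream of its hairpin with 114.442 in the combined list (rank 1563) and 74.8985 in replicate 3 (rank 604). The overlapping peak of replicate 1 had 40.6598 (rank 10387), and the best replicate 1 peak of the whole window, at another place, had 46.951 (rank 6775). The peak at mir-62 thus stood higher in replicate 1 and that at mir-90 in replicate 3. The other seed partner, mir-50, had 48.6928 in the combined list (rank 21501).

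The other 2 thresholded peaks were on chromosome I and farther from their hairpins. The peak at mir-354 (chrI:14469138-14469573) had a signal value of 166.138 in the combined list (rank 516), 127.473 in replicate 1 (rank 398) and 47.2099 in replicate 3 (rank 4362). Its summit was 865 bp upstream of the hairpin, which overlaps an exon of the ribosomal protein gene rps-20, and 144 bp from the start of ekl-4, so a protein-coding start was nearer than the microRNA. The peak at mir-8190 (chrI:11095835-11096270) had 153.66 in the combined list (rank 633), 127.936 in replicate 1 (rank 395) and 50.515 in replicate 3 (rank 3269). Its summit was 941 bp upstream of the hairpin in an intron of hmr-1, the classical cadherin gene, on the opposite strand. Both peaks were far lower in the order of replicate 3 than in that of replicate 1. At the other 5 of the 6 peaks no protein-coding start was nearer to the summit than the hairpin's 5′ end.

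The thresholded list ended at a signal value of 153.492, and microRNA genes lay close to that edge on both sides. Just inside were mir-8190 (153.66) and mir-73 with mir-74 (160.708). Just outside were mir-2 (145.825, rank 727), mir-71 (143.253, rank 765), mir-4930 (142.755, rank 771) and mir-1 (141.298, rank 800). The genes mir-2 and mir-71, the second of which is known for its effect on lifespan, lie in introns of ppfr-1, a protein phosphatase regulatory subunit gene. The mir-2 peak, 302 bp upstream, had 95.308 in replicate 1 (rank 667) and 61.4568 in replicate 3 (rank 1361), and the mir-71 peak, 1037 bp upstream, had 99.9473 (rank 609) and 54.0984 (rank 2402). The peak of mir-1, the muscle microRNA, lay 372 bp upstream in intergenic sequence and had 84.6653 (rank 936) and 62.2937 (rank 1267). These 3 genes had peaks in the upper part of both replicate lists although none passed the authors' threshold.

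The replicates put different microRNA genes at the top. Among the 634 strongest peaks of replicate 1 were summits at 13 microRNA genes (5.1%; protein-coding genes 2%), and among those of replicate 3 at 14 (5.49%; protein-coding genes 1.49%). Of these, 5 genes were in both sets (1.96%; protein-coding genes 1.02%): mir-38 to mir-41, which share a peak, and mir-58.1, so 2 of 223 loci (0.897%) were among the strongest of both. Counted by loci, that share was not above the share of protein-coding genes. In replicate 1 alone stood mir-36, mir-37, mir-62, mir-71, mir-228, mir-354, mir-5549 and mir-8190. For mir-36 and mir-37 this came from the window, since replicate 3 had a peak of rank 443 in their cluster. Its summit lay downstream of both windows. In replicate 3 alone stood mir-64 to mir-66 with mir-229, mir-73, mir-74, mir-90, mir-233 and mir-4930. With the 2000 strongest of each list, 17 microRNA genes (6.67%) were in both, against 1.97% of protein-coding genes, and with peaks of any strength 86 (33.7%) against 22.7%. Across the 75 distinct pairs of best peaks at those 86 genes, Spearman's rho between the replicates' signal values was 0.454, and the 2 summits lay within 150 bp of each other at 44 of the 86 genes. Both replicates share the same genomic sequence at each point, so this is a description and not a test.

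Examples of peaks that ranked differently or alike in the replicates follow; mir-5549, mir-228 and mir-4930 were chosen for this after their values were seen. The peak at mir-233 had rank 566 in replicate 3 (signal value 76.1033) and rank 14884 in replicate 1 (35.2898). The peak at mir-5549 had rank 503 in replicate 1 (110.76) and rank 23133 in replicate 3 (26.7611) within the window, where a replicate 3 peak that overlapped it with its summit outside the window had rank 14262 (33.0188). Its combined summit lay 156 bp from the start of rfc-4, a replication factor C subunit gene. The peak at mir-228, a microRNA made in glia, had rank 527 in replicate 1 (107.299) and rank 10296 in replicate 3 (37.0101). The peak at mir-4930 was high in both, with 79.5678 in replicate 1 (rank 1112) and 76.572 in replicate 3 (rank 552), and the 151 bases around its summit held the word TAGGG 12 times on the plus strand. Whether repeated sequence had a part in that peak was not tested.

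**Figure D3:**
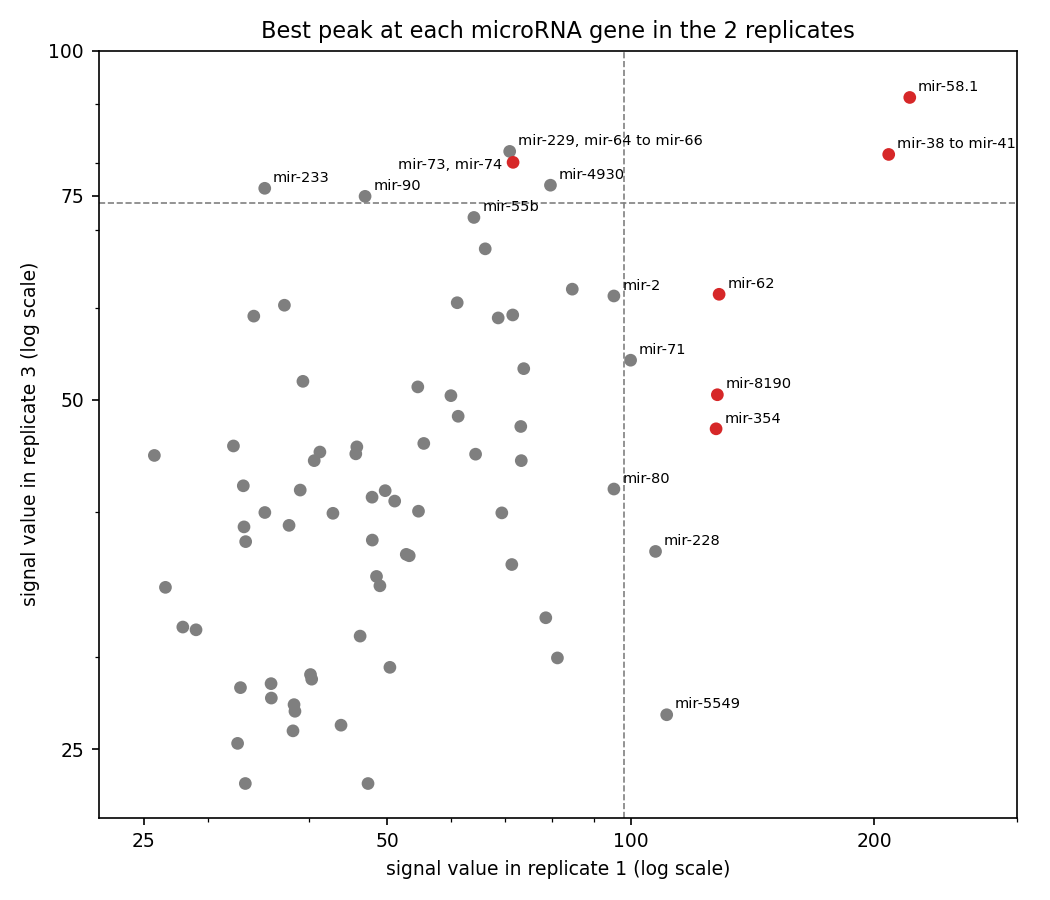
Signal value of the best peak at each microRNA gene with a peak in both replicates, replicate 1 on the horizontal and replicate 3 on the vertical axis, both on log scales. Each dot is a distinct pair of peaks, red where a thresholded summit lies in the window; the dashed lines mark the lowest of the 634 strongest peaks of each list, 98.1527 in replicate 1 and 73.8779 in replicate 3. The peaks of mir-58.1 and of mir-38 to mir-41 are the 2 above both lines.

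Among the other families read by list, 4 of the 5 members of the mir-63 family shared a strong peak. The genes mir-229, mir-64, mir-65 and mir-66 lie in an intron of gcn-1, a translation regulator, and their peak 340 bp upstream of mir-229 had 125.998 in the combined list (rank 1117), 70.8525 in replicate 1 (rank 1625) and 81.8887 in replicate 3 (rank 432). The fifth member, mir-63, had 51.5914 in the combined list (rank 19116). In the family of mir-87 and mir-233, mir-233 had a strong peak of 112.565 (rank 1656). The best summit in the window of mir-87 had 91.3126 at rank 3528, below the strong ones. A thresholded peak overlapped that window with its summit outside it. The gene mir-86, read singly, had 114.839 (rank 1541). Outside the listed families, mir-55b had a strong peak of 132.339 (rank 981). Its best peaks had 63.9972 in replicate 1 (rank 2308) and 71.8241 in replicate 3 (rank 702).

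In the heterochronic families no gene had a strong peak, and lin-4 had the highest signal value. No list had a summit in the window of let-7, which is annotated here as a long gene overlapping an exon of C05G5.7 rather than as its hairpin, so its window lay at the 5′ end of that longer gene. The 4 let-7 family members with a combined peak had signal values from 42.6544 (mir-48) to 64.6813 (mir-795), the best at rank 11076, and mir-84 had a peak in replicate 3 only (58.1487, rank 1768). The peak at lin-4, in an intron of F59G1.4, had 95.2378 in the combined list (rank 3017), 34.2072 in replicate 1 (rank 15924) and 59.0471 in replicate 3 (rank 1638). Its relative mir-237 had a peak in replicate 3 only (23.8047). Of the neuronal microRNAs, lsy-6 had no summit in any list, and mir-124, in an intron of the channel gene trpa-1, had none in the combined list, 71.2811 in replicate 1 (rank 1586) and 36.0592 in replicate 3 (rank 11114). A missing summit says only that no peak of these lists fell in the window, at a depth that is not known.

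**Figure D4:**
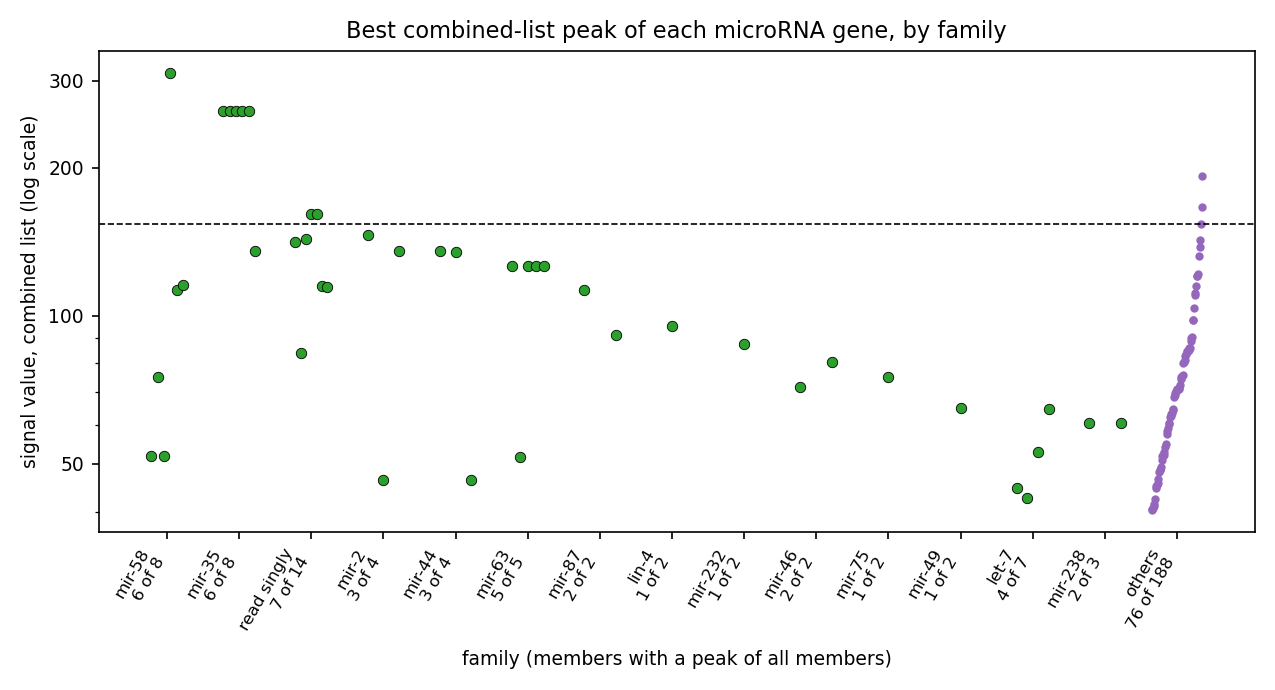
Signal value (log scale) of the best combined peak of each microRNA gene that had a peak, grouped by family with the number of members that had a peak of all members; the last column holds the 188 genes in no listed family. The dashed line is the lowest value of the thresholded list, 153.492. Dots of the mir-35 family at 260.96 are a single peak counted for 5 genes, and the let-7 family stays at or below 64.6813.

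Over all 255 genes, strong peaks were more frequent at some kinds of microRNA gene than at others, and these counts were not tested. In the listed families, counted with the 14 genes read singly, 24 of 67 genes (35.8%) had a strong peak and 44 (65.7%) any combined peak. The median rank among those with a peak was 1599.5. Among the other 188 genes the counts were 12 (6.38%) and 76 (40.4%), with a median rank of 8561. The share of protein-coding genes with a strong peak was 4.79%, near that of these 188 genes. The families were listed with earlier results of these data known, so the higher share in them cannot be read as a property of families. Of the 103 genes that share a seed with another microRNA gene, 24 (23.3%) had a strong peak, and of the 151 that share none, 12 (7.95%) did. A further 1 gene had no annotated mature strand. Sharing meant an identical seed on either annotated mature strand of the hairpin, and not membership of a listed family, so mir-58.1 was among the 151. Genes in the 17 clusters had a strong peak in 15 of 49 cases (30.6%) and genes standing alone in 21 of 206 (10.2%). A single peak can count for several clustered genes, and this also holds for the counts by family and by seed.

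By position in the genome, a larger share of hairpins in introns than of intergenic ones had a strong peak, which was also not tested. The counts were 14 of 68 (20.6%) for introns of a gene on the same strand, 8 of 27 (29.6%) for introns of a gene on the opposite strand, of which 5 are mir-37 to mir-41, and 12 of 149 (8.05%) for intergenic hairpins. By chromosome, against the 4.79% of protein-coding genes over the whole genome, strong peaks stood at 9 of 27 genes on III, 12 of 49 on II, 6 of 33 on I, 6 of 71 on X, 3 of 47 on IV and 0 of 28 on V. The shares on X (8.45%) and IV (6.38%) were above that background but closer to it than those on I, II and III. On II and III some genes shared a peak. The background was not computed for each chromosome. On V, 8 genes had any combined peak, and the highest signal value of a summit in a window was the 91.3126 of mir-87. With the window extended to 500 bp downstream, mir-87 had a thresholded summit, so its place here depends on the window's edge. In 99 of the 255 genes no list had a summit in the window, and 83 had one in the combined list and in both replicates. The same counts were not made for protein-coding genes, so these cannot be read against the background.

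Taken over genes, the median best peak lay nearer to the hairpin than the median best peak at protein-coding genes lay to the annotated start. The difference was not tested. In both classes a peak in the windows of several genes was counted for each of them. For the best combined peak the median distance was −356 bp from the hairpin's 5′ end (negative is upstream; 120 genes), and 73 of 120 summits (60.8%) lay within 500 bp. At the 7482 protein-coding genes with a peak the median was −588 bp and 44.9% lay within 500 bp. For strong peaks the medians were −292 bp at 36 microRNA genes, with 75% within 500 bp, and −434 bp at 956 protein-coding genes, with 53.7%. Below that rank they were −418 bp and −608 bp. The median rank of the best peak was 6995.5 at the 120 microRNA genes and 12056.5 at the protein-coding genes with a peak, and the median signal values were 75.3806 and 62.6911. The quantities differ in kind, because an annotated hairpin end is not a transcription start.

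Short motifs were searched on both strands within 50 bp of each summit: the Sox cores ACAAAG and ACAATG, the repeat GAGAGA, and the B box of tRNA genes (GGTTCGA, any 2 bases, then CC). Of the 6 thresholded summits at microRNA genes, that of mir-8190 held both ACAAAG and GAGAGA, and the other 5 held none of the 4. Of the 28 strong peaks, 3 held ACAAAG (10.7%; mir-8190, mir-45 and mir-81), 0 held ACAATG, 7 held GAGAGA (25%) and 0 held the B box. The shares of the same motifs over all 617 nuclear thresholded summits were 3.24%, 4.21%, 12.8% and 13.8%, and over all 29982 nuclear combined summits 5.19%, 5.57%, 8.71% and 0.677%. The words searched do not overlap in definition. The counts at microRNA genes are small, and a match is a description of the sequence and not a site. The sequence around the mir-81 summit holds the ACAAAG core on the minus strand as CTTTGT, and that around the mir-229 summit holds GAGAGA on both strands. Both are 151 bases of the plus strand, with motif matches anywhere in them in capitals. The minus-strand match at mir-229 (TCTCTC) ends farther than 50 bp from the summit, outside the stretch searched for the counts.
mir-81 summit: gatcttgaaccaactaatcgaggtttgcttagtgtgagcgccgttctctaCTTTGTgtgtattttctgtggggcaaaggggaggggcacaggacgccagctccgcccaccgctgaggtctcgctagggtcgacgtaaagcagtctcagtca
mir-229 summit: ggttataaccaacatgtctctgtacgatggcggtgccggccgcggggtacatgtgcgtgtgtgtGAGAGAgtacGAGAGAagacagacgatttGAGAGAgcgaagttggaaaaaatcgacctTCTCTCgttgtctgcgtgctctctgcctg
These sequences are from chrX:2430855-2431005 and chrIII:2172037-2172187. The median share of G and C in the 101 bases around the summit was 50% for the 6 thresholded peaks and also 50% for the 28 strong peaks, beside 51.5% for all thresholded and 42.6% for all combined summits.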

How the data were processed

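SEM-2-eGFP ChIP-seq of 2 biological replicates of mixed-stage embryos was read from 4 narrowPeak lists on ce11, per the labels. Per the labels, chromatin was sonicated to 200 to 800 bp. The peak caller, the aligner and the software for the irreproducible discovery rate, with their versions, were not given in the sources used here; a control experiment named in the labels was not analysed here. Column 7 was deposited by the authors as a signal value, a score whose scaling is not stated, and it was used only within a list. The authors' −log10 q-value (column 9) played no part in the ranks, and column 10 gave the summit.

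Genes were those of Ensembl release 115 (WBcel235), with RefSeq symbols; coordinates are 1-based. Windows, ranks and motif matches were computed with Python 3.11.15, pandas 2.3.3 and numpy 2.4.6. In 20 simulated lists of 40 planted summits each, all were recovered. The 4 lists hold no read counts, so depth is unknown and no counting interval is given. With 1 group, no test was made; shares at protein-coding genes are the background. The members, families and motifs were chosen with earlier results of these data known. Named genes are those with a thresholded summit, those among the strongest peaks of both replicates, up to 2 of highest signal per listed family and 8 genes whatever their values; others named were chosen after their values were seen. Alternatives were other windows, overlap in place of summit, a stricter signal, leaving out peaks at tRNA, snoRNA and snRNA genes or nearer a protein-coding start, and each replicate alone.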

Additional observations from a re-analysis of the deposited data

How the results depend on the processing

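With a window reaching 3000 bp upstream, 18 microRNA genes and 12 thresholded peaks were counted in place of 11 and 6, and above the median signal of the thresholded list 6 genes were left. Counting each cluster once, an alternative chosen after seeing the data, also left 6. With 500 bp upstream, any combined summit fell from 120 to 78 genes, and protein-coding genes with a thresholded summit from 398 to 214. Genes among the strongest peaks of both replicates numbered 5, but 17 with the 2000 strongest of each list, 9 with the window extended 500 bp downstream and 12 with 3000 bp upstream. For the counts of 78, 9 and 12 no share of protein-coding genes was computed in the same window, so they cannot be read against the background. Each replicate alone gave 13 (without replicate 3) and 14 (without replicate 1) genes, of which 9 and 7 were among the 11, and 7 to 10 peaks. In the windows tried, the share counted by genes, not by loci, stayed above that of protein-coding genes. It was 3.53% against 1.07% with 500 bp upstream, 5.88% against 2.17% with 500 bp downstream and 7.06% against 2.76% with 3000 bp upstream. Requiring that no protein-coding start be nearer left 10 genes, without mir-354, and leaving out peaks at tRNA, snoRNA and snRNA genes left all 11. No paired analysis was possible because there is 1 group and no test. The 2 replicates, a depth that is not known and windows placed at hairpins and not at transcription starts limit these counts.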
